A study of Caenorhabditis elegans with 2 samples.

Results

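The microRNA genes of Caenorhabditis elegans were examined for binding of the factor D1046.2. All 261 genes of biotype miRNA on the 6 nuclear chromosomes of the Ensembl annotation were taken as members, among 46890 annotated genes in all. A gene was called bound where the summit of a peak of the conservative list lay within 500 bp of it, and 17 of the 261 met this rule. The word says only that a summit lies near the gene. The worms were whole L4 larvae, 50 hours of age, of strain OP397, grown from L1 larvae that had hatched and starved after bleaching. They carried the transgene wgIs397, in which D1046.2, held on the genomic clone 91F09, is fused to TY1, EGFP and 3xFLAG tags, together with unc-119(+) as the marker that rescues the unc-119(tm4063) mutation of the host strain. There was 1 group of 2 biological replicates, and chromatin was pulled down with an antibody to GFP, so the signal is that of the tagged transgene product, averaged over all cells of the animal. No condition was compared, and no control library was used here.

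MicroRNAs are short RNAs cut from a hairpin in a longer primary transcript. Drosha and Pash-1 release the hairpin in the nucleus, Dicer cuts it in the cytoplasm, and an Argonaute protein then carries the mature strand to target messenger RNAs, which it finds mainly through the seed, bases 2 to 8 of the mature RNA. In C. elegans lin-4 and let-7 are known as the switches of the heterochronic pathway, which sets the order of larval stages: lin-4 represses lin-14 early in larval life, and let-7 represses lin-41 at the passage to the adult.

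The mature RNAs below are those of 16 of the 17 bound genes and of some relatives by seed, read from the genome at the annotated positions (RefSeq sequence and Ensembl annotation, WBcel235, the same build as ce11). They are written 5′ to 3′ with the seed in capitals, so that shared seeds can be seen. Of the annotated mature strands of a gene, the one whose seed is shared by most genes is given. The sequence of mir-794, which is bound and belongs to the let-7 family, is not shown.
let-7 (bound): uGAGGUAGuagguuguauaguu
mir-48: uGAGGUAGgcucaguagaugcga
mir-84: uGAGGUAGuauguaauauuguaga
mir-241: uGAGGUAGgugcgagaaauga
mir-793: uGAGGUAUcuuaguuagacaga
lin-4 (bound): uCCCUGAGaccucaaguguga
mir-237: uCCCUGAGaauucucgaacagcu
mir-51 (bound): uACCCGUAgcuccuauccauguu
mir-52 (bound): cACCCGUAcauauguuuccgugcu
mir-53: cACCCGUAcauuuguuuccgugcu
mir-54 (bound): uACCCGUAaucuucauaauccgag
mir-55 (bound): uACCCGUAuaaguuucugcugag
mir-56 (bound): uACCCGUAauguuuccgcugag
mir-58.1 (bound): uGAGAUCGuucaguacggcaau
mir-80 (bound): uGAGAUCAuuaguugaaagccga
mir-81: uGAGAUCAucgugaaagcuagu
mir-45 (bound): uGACUAGAgacacauucagcu
mir-61 (bound): uGACUAGAaccguuacucauc
mir-250 (bound): aAUCACAGucaacuguuggc
mir-4936 (bound): uGCUUUGUggcuuugcuggua
F09A5.15 (bound): uAACCGAUagguuucugccgag
mir-1819 (bound): uGGAAUGAuugagcuugaugga
mir-2212 (bound): uGGCAGAUcauaggcugacuuug
Among bound genes, mir-51, mir-52, mir-54, mir-55 and mir-56 carry the seed ACCCGUA, and mir-45 and mir-61 carry GACUAGA. The seeds of mir-58.1 and mir-80 differ in their last base and share the 6 bases before it.

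The 17 bound genes lay at 14 summits, which form 12 loci when genes that share a summit are joined. The share was 6.51% of microRNA genes (95% Wilson interval 4.11 to 10.2, which covers counting only). Over all annotated genes 4.86% had a conservative summit within 500 bp. Without the 15363 piRNA genes, which are 21 bp long and of which 0.221% were bound, the background was 7.12%. The share of microRNA genes was therefore close to the background. It was 6.67% for protein-coding genes, which are longer, with a median of 2027 bp against 95 bp, and 5.65% for the 7764 genes of class ncRNA, with a median of 140 bp. The shares of tRNA genes, 48.9%, snoRNA genes, 20.5%, and snRNA genes, 13.2%, were higher. The difference between classes was not tested.

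**Figure D1:**
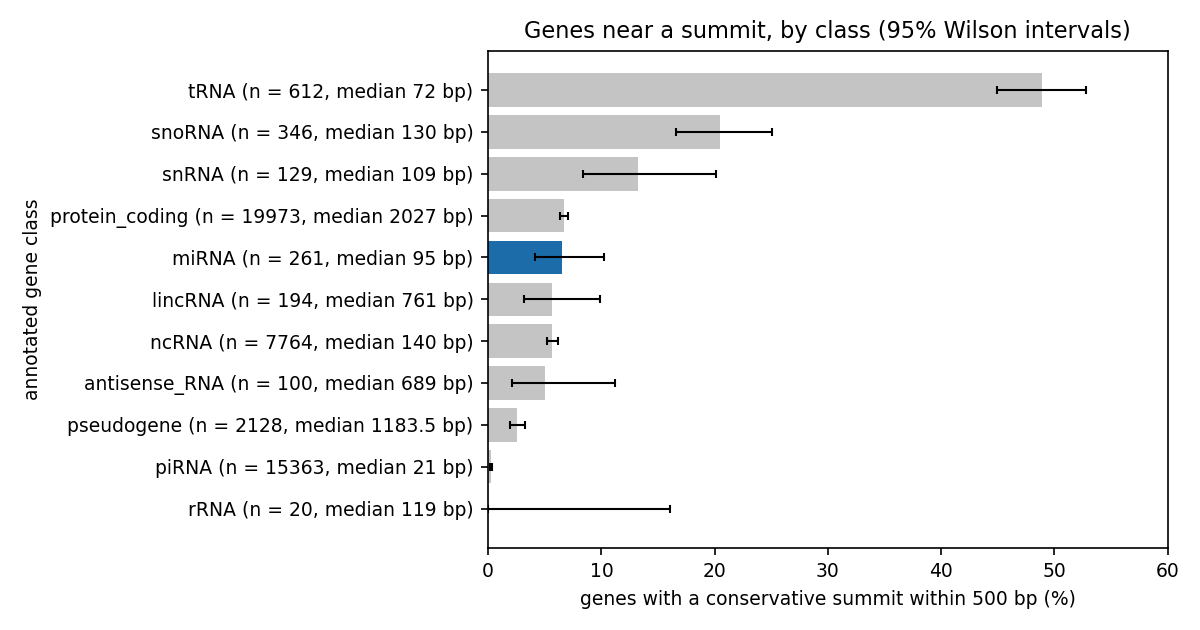
Share of annotated genes of each class with a conservative summit within 500 bp, in percent (bars), with 95% Wilson intervals as black lines and the number and median length of the genes beside each class. MicroRNA genes (blue) stand at 6.51%, beside protein-coding genes at 6.67% and well below tRNA genes at 48.9%.

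Counted by region, 317 candidate regions of the ranked list lay within 500 bp of a microRNA gene, and 14 of them, 4.42% (2.65 to 7.28), were in the conservative list. Over all 106921 candidate regions 1.45% were. The median signal of candidates near microRNA genes was 30.6, against 28.0 over all candidates, and the highest was 144. Candidates of neighbouring genes are shared, so these regions are not independent. The share over all candidates includes those far from any gene. No such share was computed for candidates near genes of other classes. The difference was not tested, so 4.42% cannot be read as an excess.

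Of the 17 genes, 13 had summits away from both tRNA genes and protein-coding promoters. The promoter window ran around each protein-coding 5′ end, 500 bp before it and 100 bp after it. A pair, mir-61 and mir-250, shared a summit in the promoter of F55A11.4, whose 5′ end lay 281 bp away. Another pair, mir-1819 and mir-2212, shared a summit inside the tRNA gene R11.t4 on chromosome X, from 16208263 to 16208346, so that peak cannot be assigned to either microRNA gene. The nearest tRNA gene to any other of the 14 summits was 5628 bp away, at mir-794.

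In 9 of the 17 genes the strongest summit lay upstream of the hairpin, from 30 bp (mir-61) to 412 bp (let-7). In the other 8 it lay downstream of the hairpin, from 3 bp (mir-4936) to 435 bp (mir-2212). No summit fell inside a hairpin. Of the 14 summits, 9 lay outside protein-coding genes and 5 in their introns.

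Other annotated genes lay close to several summits, so a summit near a microRNA gene is not always nearest to that gene. Inside annotated genes of class ncRNA, whose roles are not given here, lay 4 summits: that of mir-51 in F36H1.17, that of mir-52 in a pair of overlapping genes on opposite strands, that of lin-4 in F59G1.12 and that of mir-58.1 in Y67D8A.7. At let-7, whose annotated gene holds the summit, the ncRNA gene C05G5.8 ended 4 bp from it. At mir-80 the ncRNA gene K01F9.6, which overlaps the hairpin on the other strand, lay 190 bp from the summit. The mir-80 gene lay 189 bp from it. The nearest gene to the summit of mir-45 was top-2, a topoisomerase gene whose 3′ end was 72 bp away. The summit of mir-794 was nearest to mir-794 itself, at 377 bp, with the pseudogene T07D10.8 next, 380 bp away. The class away from tRNA genes and promoters depends on the promoter window at let-7 and mir-4936. The let-7 summit was 903 bp upstream of the 5′ end of C05G5.7. The mir-4936 summit was 688 bp upstream of that of nduf-9, a gene of respiratory complex I. With a promoter of 1000 bp upstream both genes moved to the promoter class, which then held 4 genes, and 11 were left away from both.

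**Figure D2:**
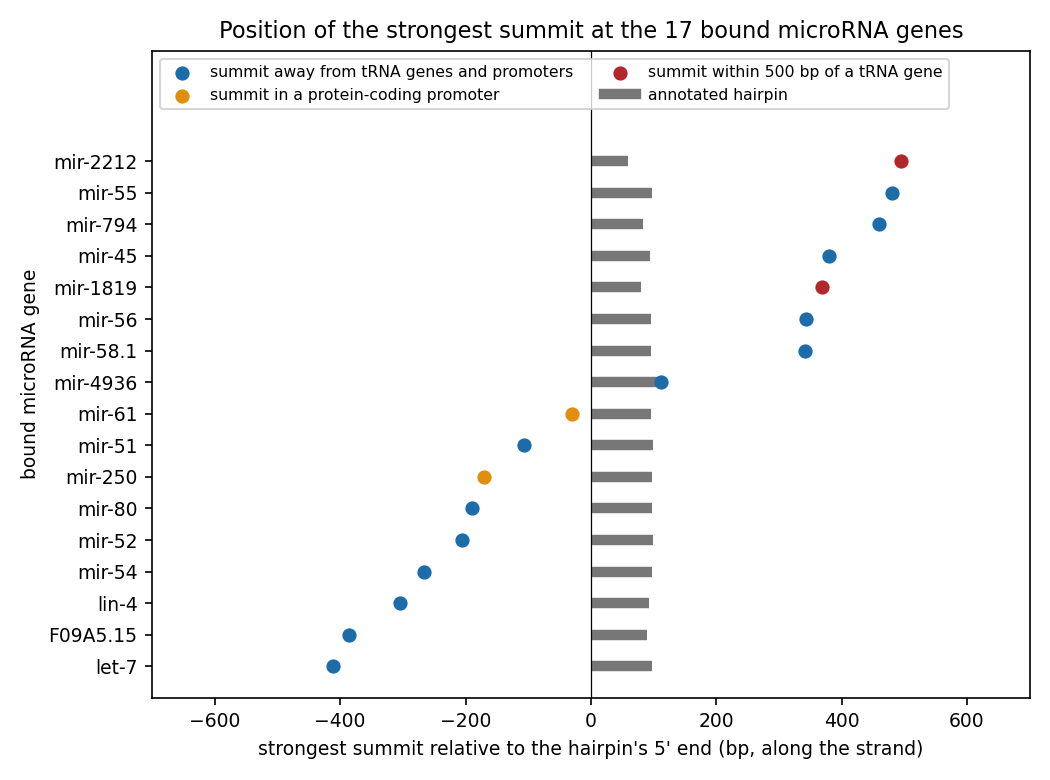
Position of the strongest summit of each bound microRNA gene in bp from the 5′ end of its annotated hairpin (grey bar), read along the gene's strand, so negative values are upstream. Colours give the class of the summit; 9 genes have it upstream and 8 downstream, and mir-55, mir-56 and F09A5.15 share the same summit.

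The peaks were of ordinary strength for the list. Signal is the authors' deposited value for each peak, whose scale no source used here states. The 14 summits had a median signal of 97.1, against 95.5 over the 1546 conservative peaks, and 7 of the 14 were above that list median. They ranged from 4.57 to 144, while the strongest peak of the list had 3151. In each replicate's own ranked list the regions at these summits had signals from 35.7 to 81.7 in replicate 1 and from 37.0 to 82.9 in replicate 2, and of the 13 distinct pairs of regions replicate 1 was higher in 6 and replicate 2 in 7. Neither replicate was higher throughout.

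Some of these peaks were called in a replicate on its own, and more were not. The peaks near mir-51 and mir-4936 overlapped a peak in both replicates' own thresholded lists. Counting these 2, 5 of the 14 overlapped a peak in the list of replicate 1 and 3 overlapped one in the list of replicate 2, while 8 overlapped neither. Replicate 1 alone placed a summit within 500 bp of 6 microRNA genes, 2.30%, against 2.34% of all genes. Replicate 2 alone did so for 4, 1.53%, against 1.87% of all genes. The replicates' own lists hold 619 and 463 peaks, against 1546 in the conservative list. The same overlap over all conservative peaks was not computed, so these counts show nothing particular to peaks near microRNA genes. The optimal list, which like the conservative one combines both replicates, placed a summit near 20 microRNA genes, 7.66%, against 5.09% of all genes. These shares of all genes include the piRNA genes. For the conservative list, leaving those out raised the share from 4.86% to 7.12%. No such share was computed for the other lists, so 7.66% cannot be read as an excess.

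Other windows and a stronger set of peaks gave other shares, each set here beside that of all genes. Those shares of all genes again include the piRNA genes, and shares without them were not computed. Within 200 bp of a conservative summit were 6 microRNA genes, 2.30%, against 3.71% of all genes. They include let-7, whose summit lies inside its annotated gene but 412 bp upstream of its hairpin. Within 1000 bp there were 18, 6.90%, against 6.06%, and from 2000 bp upstream to the 3′ end also 18, against 5.57%. With the stronger 50% of peaks 8 were bound, 3.07%, against 3.03%. With whole peak intervals in place of summits 17 were, against 5.29% of all genes.

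**Figure D3:**
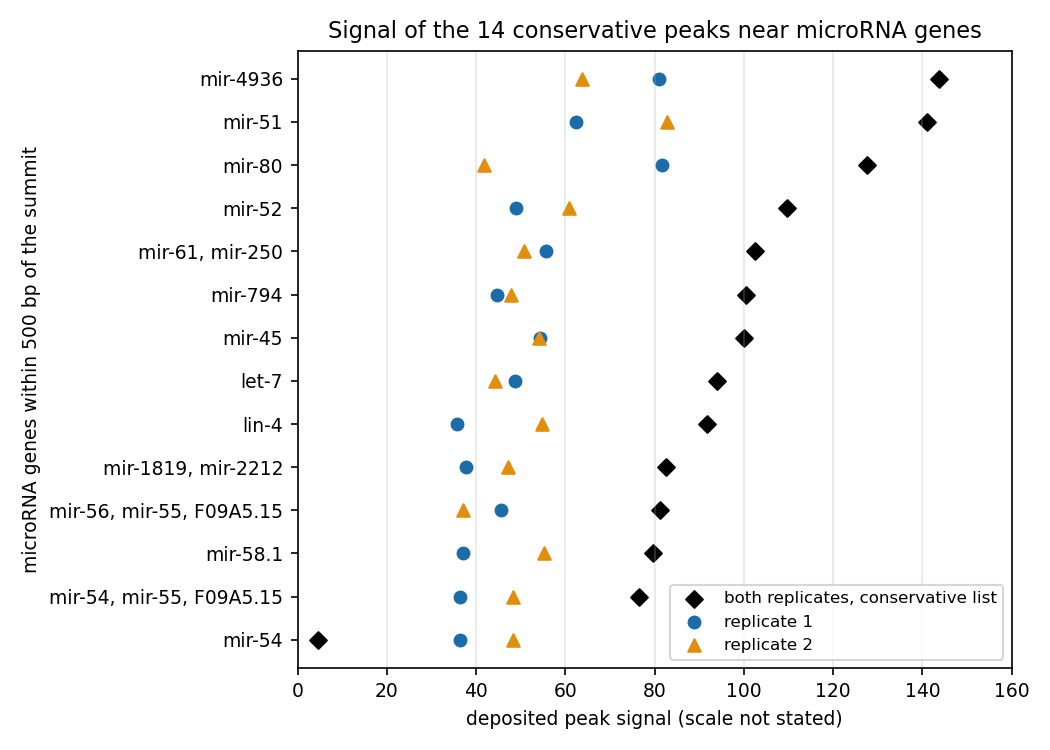
Deposited signal of the 14 conservative peaks near microRNA genes (diamonds) and of the region at the same place in each replicate's own ranked list (circles, replicate 1; triangles, replicate 2); no error bars, 1 value per list. Replicate values lie between 35.7 and 82.9. The second mir-54 peak, with a conservative value of 4.57, overlaps the same replicate regions as the peak beside it. Its replicate values of 36.4 and 48.2 are therefore also those of that peak.

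At let-7 the summit lay 412 bp upstream of the hairpin. The peak was on chromosome X from 14744535 to 14744830, inside the annotated gene, which spans the primary transcripts from 14743590 to 14745321 on the minus strand, and in sequence between protein-coding genes. Its signal was 94.1 in the conservative list, rank 808 of 1546, with 48.6 in replicate 1 and 44.3 in replicate 2. It overlapped a peak called in replicate 1 alone and none called in replicate 2 alone. The hairpin itself lies from 14744173 to 14744271, and 7 microRNA genes, let-7 among them, have annotated primary transcripts. The 101 bp around the let-7 summit are shown because let-7 is the founding member of its family:
let-7 summit (chrX:14744633-14744733, plus strand): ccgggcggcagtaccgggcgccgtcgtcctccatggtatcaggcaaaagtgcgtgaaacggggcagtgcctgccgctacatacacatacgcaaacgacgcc

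Among the other let-7 relatives, taken as the 7 genes that share bases 2 to 7, only mir-794 was bound. Its summit lay 377 bp downstream of the hairpin, with a signal of 100 (44.7 in replicate 1 and 47.8 in replicate 2), and neither replicate called a peak there alone. The hairpin of mir-795, upstream of mir-794 on the same strand, was 1493 bp from the same summit, and its strongest candidate had a signal of 19.2. The genes mir-48, mir-84 and mir-241 are known to act together earlier in larval life than let-7. At mir-48 the strongest candidate had a signal of 55.1 (19.2 in replicate 1 and 40.6 in replicate 2), and at mir-241 it had 46.8, with 32.3 in replicate 1 and no overlapping region in the ranked list of replicate 2. No candidate region lay within 500 bp of mir-84 or mir-793. The nearest conservative summits were 13293 bp from mir-48, 15069 bp from mir-241, 10363 bp from mir-84 and 58911 bp from mir-793.

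At lin-4 the summit lay 305 bp upstream of the hairpin. The gene is on chromosome II from 5902254 to 5902347, in an intron of F59G1.4 on the same strand, and the peak reached from 5901801 to 5902096 in that intron. The nearest annotated 5′ end of F59G1.4 was 1532 bp from the summit, outside the promoter window. The signal was 91.7, rank 872, with 35.7 in replicate 1 and 54.7 in replicate 2, and neither replicate called it alone. The 101 bp around the summit are shown with the motif GAGAGA, on either strand, in capitals. They hold overlapping copies of it:
lin-4 summit (chrII:5901899-5901999, plus strand): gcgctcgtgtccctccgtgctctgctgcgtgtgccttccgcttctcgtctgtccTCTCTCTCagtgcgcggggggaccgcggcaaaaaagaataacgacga
The other gene with this seed, mir-237, on chromosome X from 8154084 to 8154182, had no conservative summit within 500 bp. Its strongest candidate had a signal of 64.5 (26.2 in replicate 1 and 45.6 in replicate 2). In the optimal list a summit with a signal of 61.4 lay 332 bp away, inside the tRNA gene F22F1.t2.

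The family of mir-51, whose members are abundant and largely redundant in C. elegans, had 5 of 6 genes bound. These 5 are not independent, since mir-54, mir-55 and mir-56 lie in 1 cluster and share summits. At mir-51, on chromosome IV from 11026013 to 11026112, the summit lay 106 bp upstream of the hairpin. Its signal was 141, rank 275, with 62.3 in replicate 1 and 82.9 in replicate 2. The summit of mir-52, also on chromosome IV, lay 205 bp upstream of the hairpin, with a signal of 110 (48.9 and 60.8), and overlapped a peak in the list of replicate 2 and none in that of replicate 1. At mir-53, the member without a summit, the strongest candidate was 49 bp away with a signal of 57.5 (25.6 and 31.5). The 101 bp around the mir-51 summit, the strongest in this family, are shown; they hold none of the 5 motifs searched:
mir-51 summit (chrIV:11026168-11026268, plus strand): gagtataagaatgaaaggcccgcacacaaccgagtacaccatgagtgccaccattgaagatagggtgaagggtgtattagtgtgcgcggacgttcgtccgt

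The cluster of mir-54, mir-55 and mir-56 lies on chromosome X on the minus strand, in an intron of F09A5.3 on the opposite strand, and F09A5.15, a further microRNA gene, overlaps mir-55 on the other strand. A summit 266 bp upstream of mir-54 had a signal of 76.5 (36.4 in replicate 1 and 48.2 in replicate 2). Another, 247 bp downstream of mir-56, had 81.3 (45.6 and 37.0). A further peak, 482 bp from mir-54, had a signal of 4.57, rank 1533, although its IDR score of 882 equalled that of the peak beside it. Both overlapped the same region in each replicate's own ranked list. Only 39 of the 1546 conservative peaks had a signal under 20. Neither of the peaks on the mir-54 side overlapped an optimal peak, and no replicate called any peak of the cluster alone.

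The hexamer shared by mir-58.1 and mir-80 is that of the bantam family of insects. It occurred in 7 annotated genes, of which those 2 were bound. The summit of mir-80, on chromosome III, lay 189 bp upstream of the hairpin with a signal of 128, rank 368 (81.7 in replicate 1 and 41.7 in replicate 2). That of mir-58.1 lay 246 bp downstream of the hairpin, in an intron of phkb-1, a phosphorylase kinase gene, with a signal of 79.7 (37.1 and 55.2). The other members with a candidate, mir-81, mir-82 and mir-2209.1, had signals between 34.5 and 44.0, and mir-58.2 and Y73B6A.17 had no candidate.

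For the seed GACUAGA, 2 of 4 genes were bound. The summit of mir-45, on chromosome II, was 284 bp downstream of its hairpin, with a signal of 100.07 (54.3 in replicate 1 and 54.0 in replicate 2). The strongest candidate of mir-44, whose mature RNA has the same sequence as that of mir-45, had a signal of 19.9, with 14.9 in replicate 2 and no overlapping region in the ranked list of replicate 1. The promoter summit shared by mir-61 and mir-250 had a signal of 102 (55.7 and 50.8) and was called in neither replicate alone. The other genes with the seed of mir-250, known as the mir-2 family, were not bound: mir-2 had a candidate of 60.4, mir-43 one of 19.9 and mir-797 none. Over the whole annotation, 46 seeds were shared by 2 or more genes and 8 of these had a bound gene. Of the 109 genes with a shared seed, 12 were bound, against 17 of all 261 microRNA genes. The 12 are not independent. They include mir-54, mir-55 and mir-56 in 1 cluster, mir-61 and mir-250 at 1 summit, and mir-2212, whose peak lies in a tRNA gene. The difference was not tested.

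**Figure D4:**
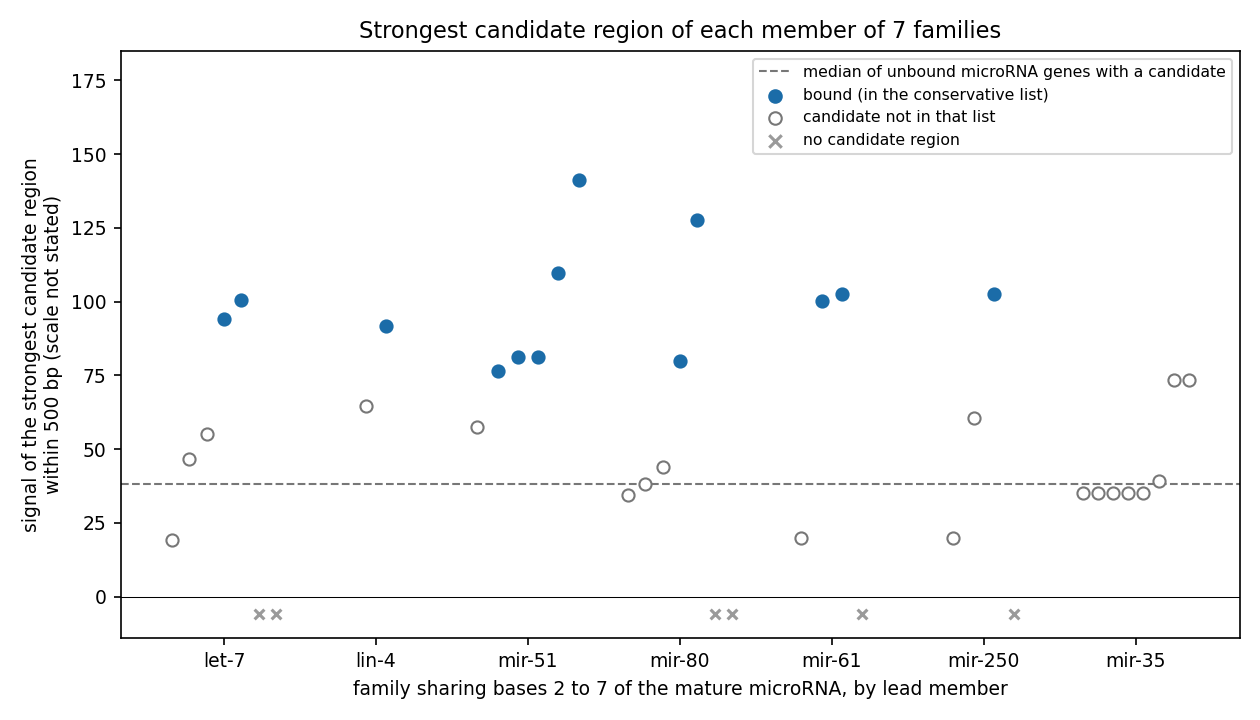
Signal of the strongest candidate region within 500 bp of each gene in 7 families that share bases 2 to 7 of the mature RNA, named by 1 member; filled circles are in the conservative list, open circles are not, and crosses below 0 mark genes with no candidate. In the mir-51 family 5 of 6 genes are filled, in the mir-35 family 0 of 8. The families of mir-51, mir-80, mir-61 and mir-250 were taken because they hold a bound gene. The contrast with mir-35 therefore shows nothing about families in general. Neighbouring genes can share a region, as mir-54, mir-55 and mir-56 do, and the dashed line is the median of unbound genes with a candidate, 38.1.

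The family of mir-35, needed in the embryo, had 0 of 8 genes bound in the conservative list. Its 7 clustered genes on chromosome II shared few candidates: the strongest, 305 bp upstream of mir-35, had a signal of 73.4 (41.1 in replicate 1 and 26.6 in replicate 2). That region was a peak of the optimal list, which brought in mir-35 and mir-36. Clustered genes can share a summit in general. Of 62 microRNA genes with another within 1000 bp, 8 were bound, and of the 199 others, 9. The 8 are not independent. They are mir-54, mir-55, mir-56 and F09A5.15 in the same cluster, the pair mir-61 and mir-250, and the pair mir-1819 and mir-2212. Each pair shares a summit. The difference was not tested.

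The strongest of the 14 peaks was at mir-4936, on chromosome III from 3249151 to 3249260. Its summit was 3 bp past the hairpin, with a signal of 144, rank 264 (81.0 in replicate 1 and 63.7 in replicate 2). The nearest other gene, the protein-coding Y53G8AL.4, ended 76 bp from the summit, and its nearest 5′ end was 229 bp away with the summit downstream of it, outside the promoter window. The nearest annotated tRNA gene was 53743 bp away, and none of the 209 RefSeq tRNA pseudogenes was within 500 bp. The 101 bp around it are shown beside those of the tRNA peak near mir-1819, because both hold GGTTCGA, in capitals on either strand, which is part of the internal B box promoter element of many tRNA genes:
mir-4936 summit (chrIII:3249213-3249313, plus strand): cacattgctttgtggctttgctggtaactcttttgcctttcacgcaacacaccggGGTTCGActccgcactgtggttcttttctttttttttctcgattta
mir-1819 and mir-2212 summit (chrX:16208273-16208373, plus strand): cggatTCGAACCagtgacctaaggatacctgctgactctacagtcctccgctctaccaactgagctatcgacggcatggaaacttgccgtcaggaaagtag
A match to these letters is a description and does not show a site.

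Of the 5 motifs searched on both strands of the 101 bp around each summit, GGTTCGA was in 2 of the 14 windows and in 9.25% of all 1546. GAGAGA was in 2 of 14, at mir-80 and lin-4, and in 10.28% of all. CACGTG was in 1, at the peak shared by mir-54 and mir-55, and in 4.27% of all. TATAAA was in 1, at mir-52, and in 3.23% of all, and GCGCGC was in 0 and in 6.21% of all. Matches can share end letters, and GAGAGA and GCGCGC can overlap copies of themselves, as GAGAGA did at lin-4. The GC content of the 14 windows ranged from 43.6% to 65.3% with a median of 55.9%, against a median of 49.5% over all summits.

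Of the 244 genes not bound, 61 had no candidate region within 500 bp. The strongest candidates of the other 183 had a median signal of 38.1. The highest was 91.2, at mir-2214 in an intron of B0361.11, with 28.4 in replicate 1 and 66.4 in replicate 2. It was a peak of the optimal list and of replicate 2 alone. Next came mir-49, with 79.0 (34.7 and 42.6), and mir-270, with 78.5 (50.7 and 26.6), which replicate 1 alone called in the promoter of T26C12.1. They were followed by mir-265, with 78.4, the overlapping pair mir-8186.1 and mir-8186.2, with 74.3, mir-35 and mir-36, with 73.4, mir-50, with 71.3, and mir-5595, with 71.3. The highest of these was above the signal of bound peaks such as those at mir-58.1 and mir-56. On the −log10 scale of the IDR, the lowest value among conservative peaks was 2.00, although 73 candidates at or above it were not in that list. The bound peaks nearest to this value were those at mir-56, 2.12, and mir-54, 2.13. The unbound gene nearest to it was mir-49, at 1.91. On the side of distance, the farthest sole summit within the limit was that of mir-2212 at 435 bp, and the nearest outside it was that of mir-354 at 830 bp, with a signal of 98.3.

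By chromosome, X held 7 of the 17 bound genes among its 74 microRNA genes, IV 3 of 50, II 2 of 49, III 2 of 27, V 2 of 28 and I 1 of 33, the last being mir-794, whose peak reached from 12596002 to 12596297. The genes on X are not independent. Besides let-7, they are mir-54, mir-55, mir-56 and F09A5.15 in 1 cluster, and mir-1819 and mir-2212 at the summit inside R11.t4. Shares of all genes by chromosome were not computed, so no chromosome can be called favoured. By position, 11 of 155 genes outside protein-coding genes were bound and 6 of 97 in introns. Of the 7 in untranslated exons and the 2 in coding exons 0 were bound. On the strand of their host gene 3 of 72 were bound, and on the opposite strand 3 of 32. The 3 on the opposite strand are mir-54, mir-55 and mir-56, which lie in 1 cluster. On the host strand, F09A5.15 shares summits with that cluster. These genes are not independent, and no difference between the groups was tested.

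Of 28 protein-coding genes that process, load or degrade microRNAs, time their expression or are their heterochronic targets, 4 had a conservative summit in the promoter, or 14.3%, against 2.34% of all 19973 protein-coding genes. These were alg-1, an Argonaute that carries microRNAs, with a signal of 97.4 (36.9 in replicate 1 and 51.2 in replicate 2), and xrn-2, an exonuclease that degrades mature microRNAs, with 101 (51.0 and 54.0). The others were daf-12, a nuclear hormone receptor that regulates let-7 family genes, with 91.6 (54.9 and 39.8), and lin-14, the main target of lin-4, with 86.9 (41.1 and 45.4). None of the 4 was called in either replicate alone. With a promoter of 1000 bp upstream 7 of the 28 had a summit, against 3.48% of protein-coding genes, and with the stronger 50% of peaks 2 did, 7.14%, against 1.64%. The 3 processing genes drsh-1, pash-1 and dcr-1 had none, and neither did lin-28, which blocks let-7 maturation, nor lin-41. Of the 24 without a peak, 5 had no candidate region in the promoter, and the candidates of the other 19 had signals from 13.2 to 74.1, the highest at lin-42. The list was put together with earlier results of these data known, which already gave peaks at alg-1, daf-12 and lin-14, so the count does not support anything about the pathway.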

How the data were processed

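ChIP-seq of tagged D1046.2 was analysed from peak lists. Per the deposited text records, the lists derive from ce11 alignments and a further file whose content the records do not name. No source used here names the aligner or peak caller. The deposited signal of each peak has no stated scale and served only for description and ranking. The deposited score is that of the irreproducible discovery rate (IDR). The lists that combine both replicates are the conservative one, with 1546 peaks, and the optimal one, with 1641. Candidate regions are those of the ranked list that holds all 1546 conservative peaks. Read depth is unknown.

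Summits were compared with Ensembl genes of WBcel235, and no peak reached past a chromosome end. Symbols came from RefSeq for all 261 genes, of which 260 have the same coordinates there. Replicate signals are those of the overlapping region with the nearest summit in each sample's own ranked list. No test was run: the design has 1 group. The members and lists were chosen with earlier results of these data known. Most genes were named by rule: every bound gene, the let-7 and lin-4 families, the gene nearest to each summit (a pair of ncRNA genes at mir-52 is described without names), the 10 strongest unbound genes, relatives by seed and pathway genes with a peak. Others were named outside this rule. They are some pathway genes without a peak, microRNA genes that came in under other settings, and genes used to place a summit or hairpin. The motifs were also chosen knowing earlier results. The software was Python 3.11.15 with numpy 2.4.6, pandas 2.3.3 and matplotlib 3.10.9.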

Additional observations from a re-analysis of the deposited data

How the results depend on the processing

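The count of 17 bound genes was 20 in the optimal list, 18 within 1000 bp, and 17 with RefSeq genes, with peak intervals in place of summits and with hairpins in place of gene extents, the last chosen after seeing the data. From 2000 bp upstream to the 3′ end it was also 18, but only 11 genes were shared. The genes mir-71, mir-235, mir-353, mir-354, mir-1829.2, mir-1830 and mir-2208.1 came in, and mir-45, mir-58.1, mir-794, mir-1819, mir-2212 and mir-4936 were lost. Within 200 bp, 6 genes were left, 0 near a tRNA gene, 4 away from tRNA genes and promoters and 1 of the let-7 and lin-4 families. Among the stronger 50% of peaks there were 8, with 0, 6 and 1 in the same order, and 2 pathway genes. The family gene within 200 bp is let-7, whose summit lies inside its annotated gene but 412 bp upstream of its hairpin. With a promoter of 1000 bp let-7 and mir-4936 joined the promoter class, which then held 4, with 11 away from both, and the pathway count was 7. With either replicate left out, the ranges were 4 to 6 bound genes, 0 to 0 near a tRNA gene, 0 to 1 in a promoter, 4 to 5 away from both, 0 to 1 of the 2 families and 0 to 0 pathway genes. Each replicate's own list is much shorter. Both mir-51 and mir-4936 were bound in every list run within 500 bp, though mir-4936 was not bound from 2000 bp upstream to the 3′ end. No paired analysis was possible because there is 1 group.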
